A study of Homo sapiens with 6 samples.

Results

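Enzymes and transporters that handle drugs, steroids, aldehydes and alcohols were examined in HepG2 cells that had received an siRNA against the long noncoding RNA H19. HepG2, derived from a human liver cancer, retains part of the hepatocyte programme, and H19 comes from an imprinted locus. The siCon group (3 libraries) received a control siRNA and the siH19 group (3 libraries) the siRNA against H19. Both were harvested 48 h later, the labels name no other treatment, and the aim was to find genes regulated by H19. The authors' deposited table holds 1998 genes that they called as changed, with 1 combined value per group, a log2 fold change (siH19 over siCon) with its standard error (SE), and a q value, which is an adjusted p. Members were taken by gene symbol from 15 name stems covering cytochromes P450 (CYP), flavin monooxygenases (FMO), quinone reductases (NQO), carboxylesterases (CES), epoxide hydrolases (EPHX), glucuronosyltransferases (UGT), sulfotransferases (SULT), glutathione transferases (GST, MGST), aldo-keto reductases (AKR), aldehyde and alcohol dehydrogenases (ALDH, ADH), short-chain and hydroxysteroid dehydrogenases (DHRS, HSD) and ABC transporters. This gave 44 of the 1998 listed genes. CYP51A1, SULT2A1 and ABCC2 were left out by the rule. The level of H19 itself was not analysed here, and siH19 is used as the submitters' label.

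Detoxification in the liver is usually described in steps. Oxidation, reduction or hydrolysis first exposes or creates a reactive group. Transferases then attach glucuronic acid, sulfate or glutathione, and ABC transporters pump substrates and conjugates across membranes. The same families also act on the body's own molecules: aromatase and the hydroxysteroid dehydrogenases make and inactivate sex steroids, aldo-keto reductases take part in bile acid and steroid metabolism, and aldehyde dehydrogenases clear aldehydes from amino acid, folate and lipid metabolism. Many of these genes are switched on by liver transcription factors and nuclear receptors, and a group that includes NQO1 and AKR1B10 is known to respond to the oxidative stress factor NRF2.

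Most of these genes were lower after the H19 siRNA. Of the 44 members, 40 (90.9%) were lower in siH19 in the authors' deposited table, against 55.3% of all listed genes. The 4 that rose were SULT1C4, CYP24A1, ALDH9A1 and ABCC1, and each came from a different family. The median log2 fold change of the members was -0.55, against -0.27 over all listed genes, and the members ran from -1.53 to 0.80 in the authors' deposited table. Among lower genes only, the median was -0.59 for the 40 members and -0.44 for all 1105 listed genes that were lower. At least a 1.5-fold fall was listed for 20 members (45.5%), against 15.6% of all listed genes. At least a 2-fold fall was listed for 5 members (11.4%), against 2.4% of all listed genes, and no member rose 2-fold. Counting falls and rises, 4.15% of all listed genes changed at least 2-fold. Every member is listed because the authors called it, so being called is no finding, and the table gives no genes that were tested and not called. Members were chosen with results of these data known, and no test of the list was made.

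**Figure D1:**
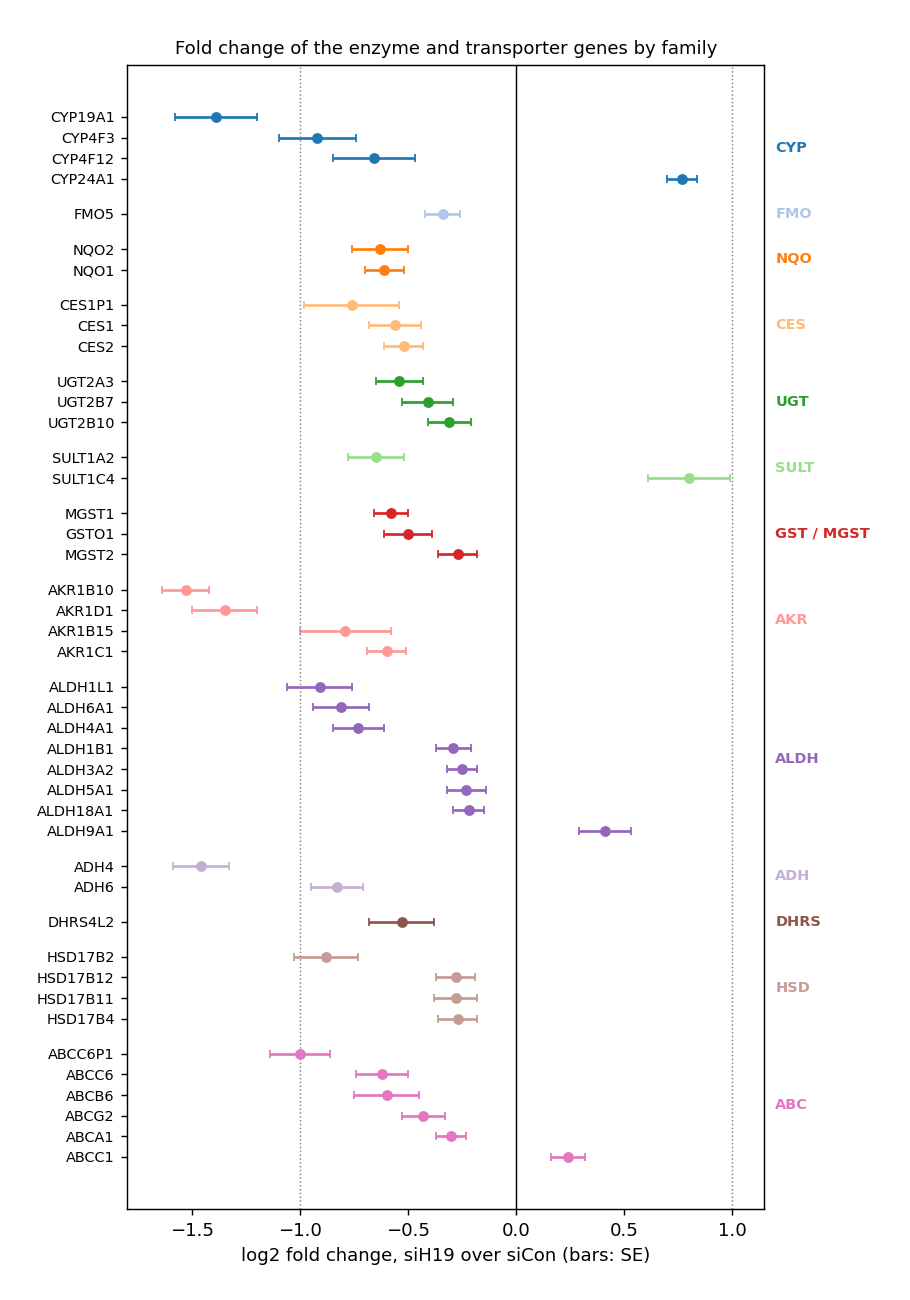
Log2 fold change, siH19 over siCon, of 43 of the 44 members as deposited by the authors, grouped by family; points are the deposited estimate, bars its SE, and dotted lines mark 2-fold changes. The 4 points right of 0 are CYP24A1, SULT1C4, ALDH9A1 and ABCC1, and the 5 at or beyond the left dotted line are AKR1B10, ADH4, CYP19A1, AKR1D1 and ABCC6P1.

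**Figure D2:**
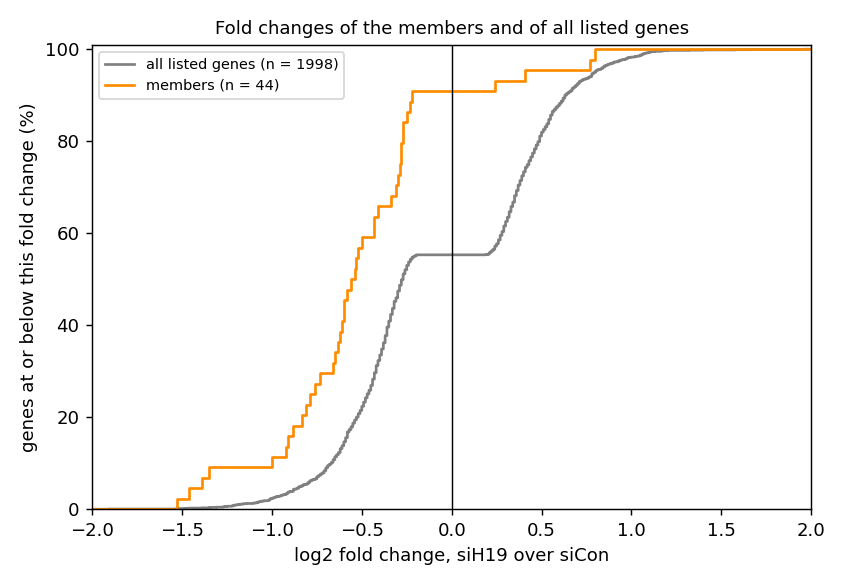
Cumulative share of genes (y axis, %) at or below each log2 fold change, siH19 over siCon (x axis), for the 44 members and for all 1998 listed genes. At 0 the member curve stands at 90.9% and the curve of all listed genes at 55.3%; both are flat around 0 because the table holds called genes only.

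The lean towards lower values was present at low and at high expression. Of 12 members with a mean count under 300, 11 were lower, against 50.5% of all listed genes at that level. Between 300 and 1500, 20 of 21 members were lower, against 54.4%. At 1500 and above, 9 of 11 were lower, against 62.6%. Sizes went the other way with level: the median absolute log2 fold change was 0.84 in the lowest and 0.29 in the highest of these ranges. Among all listed genes it went from 0.61 to 0.35, and small changes at low counts do not reach the authors' threshold.

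The HepG2 label was set beside marker genes. Only genes the authors called are listed, so an unlisted marker may be expressed and unchanged. Of 11 hepatocyte genes such as ALB, APOB and TTR, 10 were listed, with ALB at a combined count of 51776 in siCon. All 10 were lower in siH19 (55.3% of all listed genes were), from -0.88 to -0.33 in the authors' deposited table. Their summed combined count was 551185 in siCon and 354999 in siH19, of which APOB alone gave 299044 and 182812. Of 12 markers of blood, endothelial, stellate and bile duct cells, 4 were listed (CD68, LYZ, LYVE1, ACTA2), all lower as well. Their sums were 27449 and 17296, of which LYZ alone gave 25355 and 16271. The part of these marker changes in the enzyme results was not tested. In bulk RNA, fewer cells that express a gene and less RNA per cell cannot be told apart. Sequencing depth is unknown, since no library totals were given.

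Below, a combined count is 2 raised to the deposited log2 group value, and it is not a value of 1 library. No values of single libraries were used, so the authors' SE is the measure of spread and overlap between the groups' libraries cannot be described. Nothing in the labels ties the 3 libraries per group to separate cultures, so the SE and q may reflect technical spread only. A q written as 0, as for 14 members, is below the table's precision.

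The aldo-keto reductases had the lowest median and the deepest single fall of any family with at least 3 members. In the authors' deposited table all 4 were lower, with a median log2 fold change of -1.07. AKR1B10, which reduces retinal and other aldehydes, went from a combined count of 1641 in siCon to 568.1 in siH19. That is a log2 fold change of -1.53 ± 0.11 (SE) in the authors' deposited table, a 2.89-fold fall with q written as 0, and only 1 of the 1998 listed genes had a lower value. AKR1D1, the reductase that sets the ring shape of bile acids and inactivates steroid hormones, went from 210.8 to 82.7, at -1.35 ± 0.15 with q written as 0 in the authors' deposited table. AKR1C1, which inactivates progesterone, was more abundant per kb of exon (591.5 counts in siCon, against 68.2 for AKR1D1). It fell less, from 5185 to 3397, at -0.60 ± 0.09 in the authors' deposited table. The gap of 0.75 between AKR1D1 and AKR1C1 is more than 2 times the combined SE of 0.17. AKR1B15, the neighbour of AKR1B10, was barely expressed, at 19.2 and 11.1, and stood at -0.79 ± 0.21 (q = 0.00277) in the authors' deposited table. Its SE is below the 0.314 expected from counting error with 3 libraries in each group, the only such case among the members, so its fold change is uncertain. Without AKR1B15 the family's median was -1.35.

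Reads of several of these genes can fit a near-identical copy. By transcript sequence, 63.1% of AKR1B10 aligned to AKR1B15 at a mean identity of 95.4%, and 56.1% of AKR1C1 aligned to AKR1C2 at 97.2%. How the authors assigned reads with several matches is unknown here, which leaves the split between such copies uncertain.

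Both listed alcohol dehydrogenases were lower. ADH4, a liver enzyme that oxidises ethanol and retinol, went from a combined count of 530.1 to 192.7, at -1.46 ± 0.13 in the authors' deposited table, a 2.75-fold fall. ADH6, its direct neighbour on chromosome 4 with no coding gene between, went from 885.3 to 494.6, at -0.83 ± 0.12 in the authors' deposited table. Both had q written as 0. The gap of 0.63 between the neighbours exceeds 2 times their combined SE of 0.18.

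The aldehyde dehydrogenases, with 8 listed members the largest family, were described in 3 levels drawn after their fold changes were sorted. ALDH1L1, which oxidises formyl-tetrahydrofolate in one-carbon metabolism, ALDH6A1, a mitochondrial enzyme of valine breakdown, and ALDH4A1, which completes proline breakdown, were lowest. In the authors' deposited table they stood at -0.91 ± 0.15, -0.81 ± 0.13 and -0.73 ± 0.12, each with q written as 0. Their combined counts went from 328.6 to 173.6, from 652.6 to 372.2 and from 968.8 to 584.1. Adjacent genes of these 3 did not differ by more than 2 times their combined SE. ALDH1B1 (-0.29 ± 0.08), ALDH3A2 (-0.25 ± 0.07), ALDH5A1 (-0.23 ± 0.09) and ALDH18A1 (-0.22 ± 0.07) were modestly lower in the authors' deposited table, and adjacent genes of these 4 did not differ by more than 2 times their combined SE. These act on acetaldehyde, on fatty aldehydes, on an intermediate of GABA breakdown and in proline synthesis. The step from ALDH4A1 to ALDH1B1, 0.44, exceeded 2 times the combined SE of 0.14, but the cut was placed there after sorting. Among all listed genes the smallest absolute log2 fold change was 0.23 at mean counts of 300 to 1500 and 0.19 at 1500 and above. The 4 modest falls lie near these values, so their grouping cannot be separated from the authors' threshold. ALDH5A1 was the member nearest the authors' threshold, with q = 0.0471, and overlaps the listed gene GPLD1. ALDH9A1, an enzyme of carnitine synthesis, was higher, from 335.5 to 445.7, at 0.41 ± 0.12 (q = 0.00574) in the authors' deposited table. Of the proline enzymes, ALDH4A1, which degrades it, was lowered more than ALDH18A1, which makes it.

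The 4 members with an HSD stem were all of the HSD17B group, and all were lower. HSD17B2, which oxidises estradiol and testosterone to weaker forms, went from a combined count of 247.3 to 133.4, at -0.88 ± 0.15 with q written as 0 in the authors' deposited table. The other 3 were close together, at -0.28 for HSD17B12 and HSD17B11 and -0.27 for HSD17B4 in the authors' deposited table. Their SEs were 0.09 to 0.10 and q ran from 0.0131 to 0.034 in the authors' deposited table. The smallest listed absolute change was 0.23 at mean counts of 300 to 1500 and 0.19 at 1500 and above. The grouping of these 3 therefore cannot be separated from the authors' threshold. HSD17B12 works mainly in fatty acid elongation and HSD17B4 in peroxisomal beta-oxidation. HSD17B2 lay 0.60 below HSD17B12, more than 2 times their combined SE of 0.17. In the related DHRS family, DHRS4L2 went from 213.8 to 149.1, at -0.53 ± 0.15 (q = 0.00387) in the authors' deposited table, but 68.7% of its transcript aligned to DHRS4 at 98.8% identity.

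Of the 4 P450 members, 3 were expressed at a low level and lower in siH19, and the abundant CYP24A1 was higher. CYP19A1, the aromatase that makes estrogens from androgens, went from a combined count of 134.4 to 51.3, at -1.39 ± 0.19 with q written as 0 in the authors' deposited table, a 2.62-fold fall. CYP4F3, which inactivates leukotrienes and hydroxylates fatty acids, went from 98.4 to 52, at -0.92 ± 0.18 (q = 1.00e-05) in the authors' deposited table. Its neighbour CYP4F12 went from 84.4 to 53.4, at -0.66 ± 0.19 (q = 0.00459) in the authors' deposited table. In order of fold change, adjacent genes of these 3 did not differ by more than 2 times their combined SE. The outer pair, CYP19A1 and CYP4F12, did differ by more than 2 times theirs. Of CYP4F3, 46.3% aligned to CYP4F2 at 95.5% identity. CYP24A1, which inactivates the hormone form of vitamin D, went the other way, from 4513 to 7697. Its log2 fold change was 0.77 ± 0.07 with q written as 0 in the authors' deposited table, a 1.71-fold rise. Per kilobase of annotated exon, CYP24A1 was the third most abundant member in siCon, at 1136 counts per kb, against 15.8 to 17.8 for CYP19A1, CYP4F3 and CYP4F12. The family is therefore described by its members: its median, -0.79, is set by the 3 low-level genes. Of 56 annotated coding CYP genes, 5 were listed, CYP51A1 included, and for the others the table does not say whether they were unexpressed, unchanged or not tested.

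The other listed first-step members were all lower, from -0.76 for the pseudogene CES1P1 to -0.34 for FMO5 in the authors' deposited table. NQO1 and NQO2, which reduce quinones, changed by -0.61 ± 0.09 (q written as 0) and -0.63 ± 0.13 (q = 4.30e-05) in the authors' deposited table, with combined counts of 10226 and 6700 for NQO1 and 548.7 and 354.6 for NQO2. NQO1 had the highest mean count of any member, 8481, and also the highest siCon level per kb of exon, 3143 against 47.5 for NQO2. CES1 and CES2, which hydrolyse ester drugs and lipids, went from 1176 to 797.9 and from 1235 to 861.1, at -0.56 ± 0.12 and -0.52 ± 0.09 in the authors' deposited table. The pseudogene CES1P1 stood at -0.76 ± 0.22 with a mean count of 32 in the authors' deposited table, and 53.7% of it aligned to CES1 at 97.2% identity. Of CES1 itself, 81.5% aligned to CES1P1 at 96.5% identity, so the split of reads between them is uncertain. FMO5, an oxygenase abundant in liver, stood at -0.34 ± 0.08 (q = 0.001) in the authors' deposited table and overlaps the listed gene CHD1L. No EPHX gene was listed.

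**Figure D3:**
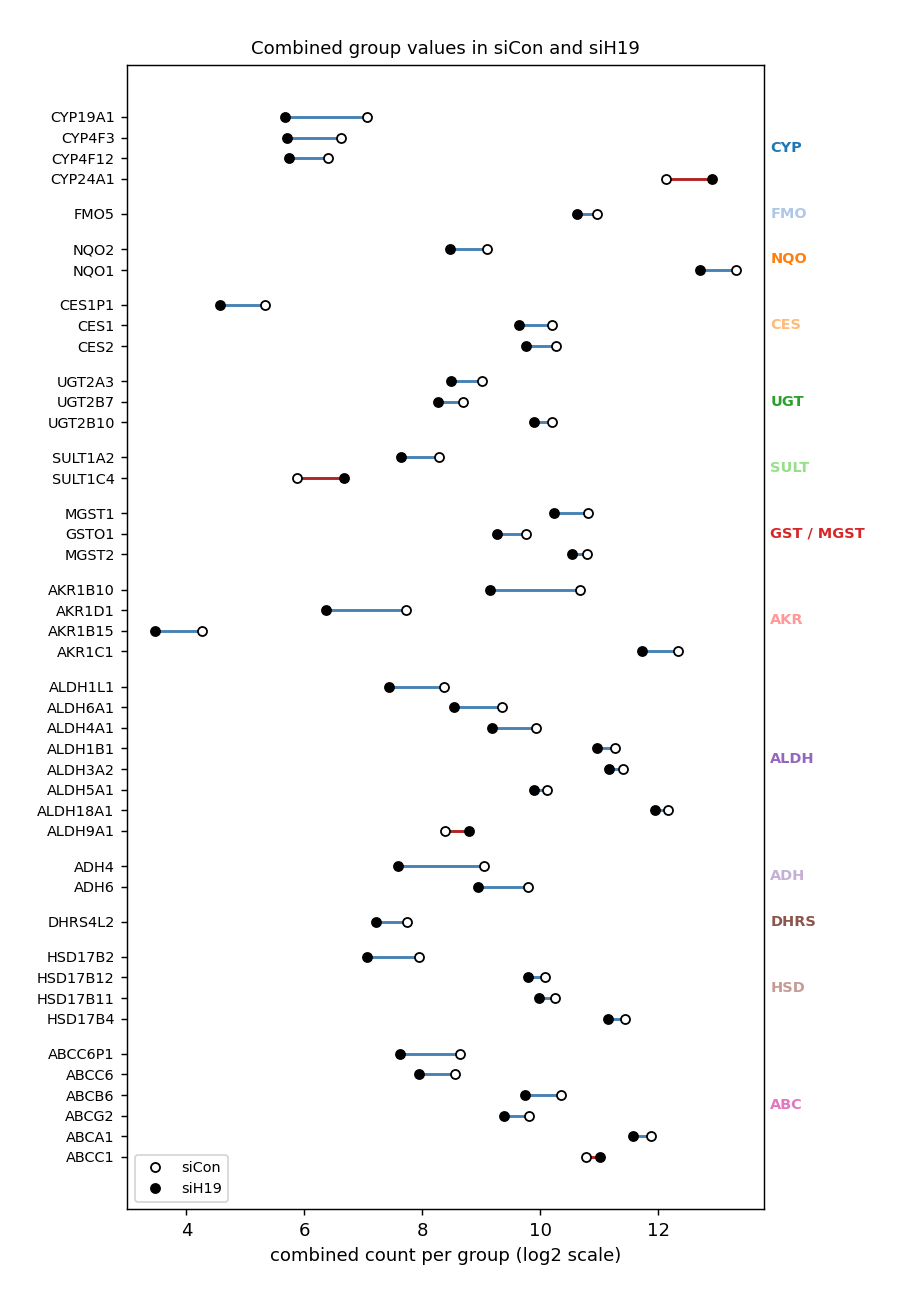
Combined count of 43 of the 44 members in siCon (open circles) and siH19 (filled circles) on a log2 scale, by family; blue lines join pairs that are lower in siH19 and red lines pairs that are higher. The 4 red lines are CYP24A1, SULT1C4, ALDH9A1 and ABCC1, and levels run from AKR1B15, the lowest, to NQO1, the highest.

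Conjugating enzymes were lower by smaller amounts, with 7 of 8 lower and a median of -0.45. The 3 listed glucuronosyltransferases, UGT2A3, UGT2B7 and UGT2B10, lie in 1 cluster on chromosome 4 and glucuronidate bile acids, steroids, opioids and nicotine between them. They went from combined counts of 519.1 to 357.1, 413.0 to 308.7 and 1176 to 948.8, at -0.54 ± 0.11, -0.41 ± 0.12 and -0.31 ± 0.10 in the authors' deposited table. The gap of 0.23 between the outer pair was under 2 times the combined SE of 0.15. MGST1, a membrane glutathione transferase, stood at -0.58 ± 0.08 (q written as 0), from 1795 to 1201, and MGST2, which can also make leukotrienes, at -0.27 ± 0.09 (q = 0.0249), from 1783 to 1489, in the authors' deposited table. The gap of 0.31 between these 2 exceeded 2 times the combined SE of 0.12. GSTO1, an omega-class transferase, stood at -0.50 ± 0.11 in the authors' deposited table.

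The sulfotransferases were divided. SULT1A2, which sulfates phenols, went from a combined count of 313.0 to 199.5, at -0.65 ± 0.13 (q = 3.50e-05) in the authors' deposited table, with 45% of its transcript aligned to SULT1A1 at 96.8% identity. SULT1C4, a family member known from fetal tissue, had the largest rise of any member, from 58.5 to 101.8, at 0.80 ± 0.19 (q = 0.000473) in the authors' deposited table, a 1.74-fold rise at a low level. For comparison, the left-out SULT2A1 stood at -1.53 ± 0.13, CYP51A1 at -0.47 ± 0.08 and ABCC2 at -0.28 ± 0.07 in the authors' deposited table.

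Of the 7 ABC members, the pseudogene ABCC6P1 included, 6 were lower, with a median of -0.43. ABCC6, which mediates ATP release from hepatocytes, went from a combined count of 377.4 to 245.6, at -0.62 ± 0.12 (q = 1.20e-05), and its pseudogene ABCC6P1 from 398.9 to 198.1, a 2-fold fall with an SE of 0.14 on the log2 scale, in the authors' deposited table. Of the pseudogene's transcript 47% aligned to ABCC6 at 99.3% identity, and of ABCC6's 21% aligned back. ABCC1, a pump for glutathione conjugates, lies next to ABCC6 on chromosome 16 with no coding gene between and moved the other way, from 1758 to 2077, at 0.24 ± 0.08 (q = 0.0176) in the authors' deposited table. ABCC6 lay below ABCC1 (a difference of -0.86), and the gap exceeded 2 times their combined SE of 0.14. ABCB6, a porphyrin transporter, stood at -0.60 ± 0.15 in the authors' deposited table. ABCG2, a drug and urate exporter, stood at -0.43 ± 0.10 and ABCA1, which exports cholesterol, at -0.30 ± 0.07 in the authors' deposited table. Per kb of exon, ABCA1 had the highest siCon level of these transporters, at 332.1 counts, and its combined count went from 3769 to 3061.

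Across families, all members were lower in 9 of the 13 families with a listed member: FMO, NQO, CES, UGT, GST with MGST, AKR, ADH, DHRS and HSD. The other 4 (CYP, SULT, ALDH, ABC) each held 1 gene that rose. Families with at least 3 members were ordered by median as AKR (-1.07), CYP (-0.79), CES (-0.56), GST with MGST (-0.50), ABC (-0.43), UGT (-0.41), HSD (-0.28) and ALDH (-0.27). The order depends on the threshold: at q under 0.01 the medians were -0.51 for ALDH (6 members), -0.60 for ABC (5 members) and -0.88 for HSD (HSD17B2 alone). Among members changed at least 1.5-fold they were -0.81 for ALDH (3 members) and -0.62 for ABC (3 members, the pseudogene ABCC6P1 included). For HSD and CES 1 member each was left, HSD17B2 at -0.88 and the pseudogene CES1P1 at -0.76. At mean counts of at least 100, CYP24A1 alone remained of the CYP family, at 0.77. By role, 18 of 19 carbonyl and alcohol enzymes were lower with a median of -0.60. Of 10 members in the oxidation, quinone reduction and hydrolysis families, the pseudogene CES1P1 included, 9 were lower with a median of -0.62. Among all members 90.9% were lower, and among all listed genes 55.3%. Members of 1 family are not replicates, several share neighbours or sequence, and members of AKR, ALDH, CYP and ABC differed by more than the family medians did, so the order is a description. Genes known for steroid or vitamin D metabolism (CYP19A1, CYP24A1, AKR1D1, AKR1C1, UGT2B7 and the HSD17B genes) were grouped here after their values were seen. Of these 9 genes 8 were lower, near the share over all members, and CYP24A1 rose.

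Other listed genes of these pathways are given beside the values over all listed genes, of which 55.3% were lower with a median of -0.27, or -0.44 among lower genes only. Of 24 nuclear receptors and liver factors, 8 were listed and 6 of these were lower, with a median of -0.55. NR1H4, the bile acid receptor, stood at -1.31 ± 0.12, CEBPA, a hepatocyte transcription factor, at -0.69 ± 0.11 and NR0B2, a repressor induced by NR1H4, at -0.61 ± 0.10 in the authors' deposited table. AHR, the receptor for dioxins that induces P450 genes, rose slightly, at 0.21 ± 0.07 (q = 0.0338), and the glucocorticoid receptor NR3C1 stood at 0.29 ± 0.08 in the authors' deposited table. Of 28 genes on a chosen list of the NRF2 pathway, 10 were listed and all 10 were lower, with a median of -0.42. The list holds no members, so the members, 40 lower and 4 higher, do not enter this count. GPX2, a glutathione peroxidase, fell most (-0.75 ± 0.09), before OSGIN1 (-0.50 ± 0.14) and the autophagy receptor SQSTM1 (-0.49 ± 0.09) in the authors' deposited table. NFE2L2, which encodes NRF2, and its inhibitor KEAP1 were not among the listed genes.

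**Figure D4:**
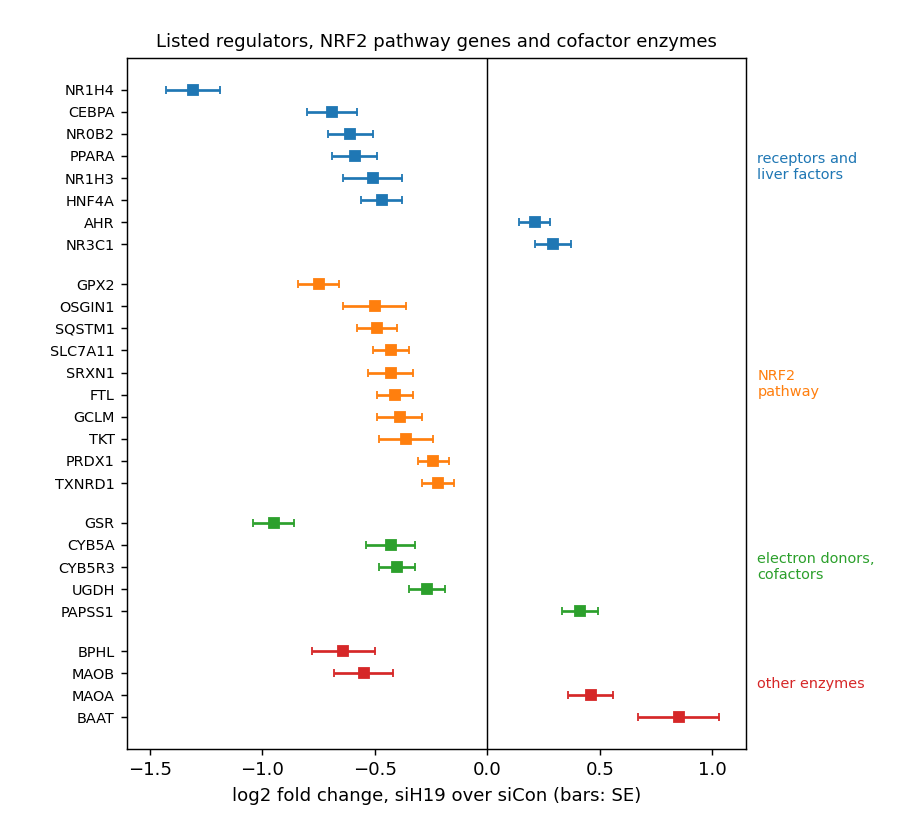
Log2 fold change, siH19 over siCon, with SE as deposited by the authors, for listed genes of 4 lists: nuclear receptors and liver factors, the NRF2 pathway, electron donors and cofactor supply, and other redox and conjugation enzymes. All 10 listed genes of the NRF2 list, which holds no members, lie left of 0, while AHR, NR3C1, PAPSS1, MAOA and BAAT lie right of it.

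Genes that supply cofactors to these enzymes were listed in 5 of 20 cases, 4 of them lower. GSR, which regenerates glutathione, went from a combined count of 3327 to 1734, at -0.95 ± 0.09 in the authors' deposited table. CYB5A, an electron donor to P450 enzymes, stood at -0.43 ± 0.11, and PAPSS1, which makes the sulfate donor used by sulfotransferases, was higher at 0.41 ± 0.08 in the authors' deposited table. Their median was -0.40. Of 28 other redox and conjugation enzymes 4 were listed, 2 in each direction, with a median of -0.05. The largest changes there in the authors' deposited table were BAAT, which conjugates bile acids (0.85 ± 0.18), BPHL, a hydrolase (-0.64 ± 0.14), and MAOB, a monoamine oxidase (-0.55 ± 0.13).

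Promoter letters were searched because members moved together. RefSeq windows on GRCh38.p14, from 250 bases before to 50 after each start, were matched for 31 of the 44 members. GTTAAT, part of the site of the liver factor HNF1, was found on either strand in 4 members (12.9%), against 8.27% of all symbols and 7.73% of listed genes with a window. TGACNNNGC, the core of the element bound by NRF2, was found in 5 (16.1%), against 16.1% of all symbols and 19.4% of listed genes. GCGTG, the core bound by AHR, was found in 8 (25.8%), against 40.6% of all symbols and 56.3% of listed genes. CAAAGTCCA, an HNF4A-type site, was found in none, against 0.472% and 0.917%. With 31 windows these shares rest on at most 8 matches and were not tested. A match is only a run of letters, and AKR1B10 and CYP24A1 are among the 13 without a window.
The stretches around the GTTAAT matches are shown because they include ADH4 and AKR1D1, a pair of the deepest falls, and the GSTO1 stretch is shown as an example of the NRF2 core; capitals mark each match in a stretch, and a match on the other strand reads ATTAAC. They lie on GRCh38.p14 at chr4:99144516-99144547 (ADH4, minus strand), chr7:138076368-138076423 (AKR1D1, plus), chr1:147225494-147225549 (FMO5, minus), chr12:16347564-16347619 (MGST1, plus) and chr10:104254642-104254699 (GSTO1, plus).
ADH4: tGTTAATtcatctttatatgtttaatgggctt
AKR1D1: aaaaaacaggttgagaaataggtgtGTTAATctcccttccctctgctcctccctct
FMO5: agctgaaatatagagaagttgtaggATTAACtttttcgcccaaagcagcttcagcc
MGST1: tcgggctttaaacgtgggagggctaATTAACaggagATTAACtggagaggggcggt
GSTO1: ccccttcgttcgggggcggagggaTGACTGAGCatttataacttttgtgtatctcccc
The matches begin 249 bases before the annotated start in ADH4, 66 in AKR1D1, 185 in FMO5, 56 and 45 in MGST1 and 226 in GSTO1, where a further match at 161 lies outside the stretch shown.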

How the data were processed

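RNA was depleted of ribosomal RNA, turned into strand-specific libraries and read in pairs over 76 cycles, per the labels' protocols. STAR 2.5.0a, Cufflinks 2.2.1, DESeq2 1.0.0 and hg19 are named in the submitters' processing notes without roles; the annotation and the handling of multiply mapped reads are not given in the sources used here. Log2 group values, a log2 fold change and its SE were deposited, per the file headers. The mean count they deposited is a normalized signal. The q values that the authors deposited reach at most 0.0498, so only called genes are listed. No value per library was used and 0 columns came from outside the series.

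The fold change equalled the difference of the group values within 0.01. Counts, medians and combined SEs (root of summed squares) were computed in Python 3.11.15 with pandas 2.3.3. The design foresaw a model per gene only if library values were held, so none was fitted. Near-identical copies were found with BLAST 2.17.0 on GENCODE release 29 transcripts (at least 95% identity over 150 bases, other loci only). That release also gave neighbours, overlaps, chromosomes and exon lengths; it has another build, so none of its coordinates are printed, and all 44 symbols matched. Members and lists were chosen with earlier results of these data known. Every member is named except 1, which is counted but not reported here; by rule, the 2 largest changes per family of at least 3, the 3 largest rises and falls and the 3 highest mean counts received full values, as did others as examples. Alternatives were stricter thresholds, count minimums and left-out genes.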

Additional observations from a re-analysis of the deposited data

How the results depend on the processing

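The share of members lower in siH19, 90.9%, ran from 88.6% (without near-identical copies) to 92.9% (without the SULT family) under the 19 alternatives run. The number of families with all members lower, 9, stayed within 1.5 times. Nearly all alternatives are subsets of the same called members, so little movement was possible and robustness cannot be judged from them. The median log2 fold change of -0.55 stayed negative under all 20 and moved by more than the members' median SE under 4: -0.33 at mean counts at or above the median of listed genes (-0.27 over all listed genes there), -0.78 among members changed at least 1.5-fold (-0.60 over all listed genes there), -0.43 without 9 members that have a near-identical copy, and -0.39 as a mean weighted by the inverse square of the SE. All but the weighted mean hold fewer genes by construction. The CYP family's median reversed to 0.77 at mean counts of at least 100 and at or above the median, where CYP24A1 alone was left. Leaving out near-identical copies, members with an SE below counting error, or each family in turn was chosen after seeing the data; the planned protein comparison was not run and transcripts were used in its place. No paired analysis was possible because the deposited table combines the libraries of a group, and no library could be left out. For the same reason depth per library sets no limit that could be stated.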
